A study of Mus musculus and Rattus norvegicus with 6 samples.

Results

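The miR-129 family of the rodent retina was described here from every row of a miR-129 name in the count tables, whatever its letter, copy or arm. These were 3 of 764 mature miRNA names in the rat table and 5 of 1915 in the mouse table. The names mmu-miR-129-5p, mmu-miR-129-1-3p and mmu-miR-129-2-3p have a rat counterpart of the same name, and miR-129b-5p and miR-129b-3p are listed for mouse. Small RNA was sequenced from retinas of wild-type Sprague Dawley rats and wild-type C57BL/6 mice, all 9 weeks old, with 3 libraries per species (r1, r2 and r4 in rat, m1, m3 and m4 in mouse). No treatment is labelled, and strain changes with the species. The labels speak of biological samples in triplicate without naming separate animals, so the p-values below cover library-to-library spread, some of which may be technical. The series profiles retinal miRNAs in both rodents.

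A miRNA hairpin is cut into a duplex whose strands, the 5p and the 3p arm, can each be loaded into an Argonaute protein, where bases 2 to 8 of the strand (the seed) find target messenger RNAs. The miR-129 family is enriched in brain and other neural tissue and is made from hairpins at separate loci that yield the same 5p strand. In rodent neurons miR-129-5p is known to repress the potassium channel Kv1.1 and to take part in the downscaling of excitatory synapses. A count under miR-129-5p cannot be assigned to either hairpin, whereas the 3p names carry the hairpin's number.

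The sequences show what the hairpins share, which decides what a count can be assigned to. They were taken from RefSeq (mouse, GRCm38.p6), with the seed in capitals in the mature miRNAs and miR-129-5p in capitals in the hairpins. The gene Mir129-1 lies at chr6:29022619-29022691 on the plus strand and Mir129-2 at chr2:94241364-94241453 on the minus strand.
mmu-miR-129-5p: cUUUUUGCggucugggcuugc
mmu-miR-129-2-3p: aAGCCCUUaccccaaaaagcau
Mir129-1 hairpin: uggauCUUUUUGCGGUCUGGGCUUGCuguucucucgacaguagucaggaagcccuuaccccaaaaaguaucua
Mir129-2 hairpin: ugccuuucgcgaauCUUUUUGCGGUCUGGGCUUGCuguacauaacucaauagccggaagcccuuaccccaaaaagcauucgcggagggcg
mmu-miR-129b-5p: gCUUUUUGggguaagggcuucc
mmu-miR-129b-3p: cAAGCCCAgaccgcaaaaagauu

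Hairpins of 73 and 90 bases shared a run of 26 bases that holds the whole of miR-129-5p, 21 bases long. On the 3p side they shared a run of 21 bases, after which the letters differ. This run holds the seed letters of miR-129-2-3p, which therefore stand in both hairpins. Among 1679 mature mouse names searched, the seed of miR-129-5p was found in that name alone. The Mir129b hairpin of 65 bases lies on the plus strand within Mir129-2 (chr2:94241378-94241442), and its sequence is the exact reverse complement of that stretch.

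The 5p strand led the family in every library. Of all counts in a library, miR-129-5p made up 2.32% in r1, 1.57% in r2 and 1.61% in r4, against 1.06% in m1, 1.09% in m3 and 1.04% in m4. On this unscaled share all 3 rat libraries lay above all 3 mouse libraries, and r1 was the highest of the 6. The underlying counts were 560226 in r1, 397940 in r2 and 452673 in r4, against 294742 in m1, 333923 in m3 and 292632 in m4. By mean share miR-129-5p ranked number 11 in rat and number 16 in mouse.

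Its neighbours in the order of the rat retina were let-7i-5p above (1.93% ± 0.0586) and miR-181a-5p below (1.72% ± 0.680), beside 1.83% ± 0.421 for miR-129-5p (SD, n = 3 each). Neither rat neighbour was separate from miR-129-5p: in r1 miR-129-5p exceeded both, and in r2 and r4 it lay under both. In mouse let-7a-5p stood above (1.25% ± 0.156) and miR-30c-5p below (1.03% ± 0.0183), beside 1.06% ± 0.0284 for miR-129-5p (SD, n = 3 each). The mouse libraries of let-7a-5p did not overlap those of miR-129-5p, while those of miR-30c-5p did.

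The 3p names were far less abundant and behaved differently in the tables of the species. The names that carry a hairpin's number had equal counts in every rat library, 19852 each in r1, 31445 each in r2 and 37804 each in r4. In mouse, miR-129-2-3p had 16374, 16091 and 14437 counts in m1, m3 and m4. There miR-129-1-3p had 2762, 2923 and 2466 counts. The Mir129-1 name therefore held 14.4% of the mouse 3p counts in m1 (95% exact binomial interval 13.9 to 14.9, counting error only), 15.4% in m3 (14.9 to 15.9) and 14.6% in m4 (14.1 to 15.1). A mouse 3p read that ends within the run shared by the hairpins fits either of them. How such reads were counted is not known, and the intervals do not cover it. The rat table gives no such split.

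**Figure D1:**
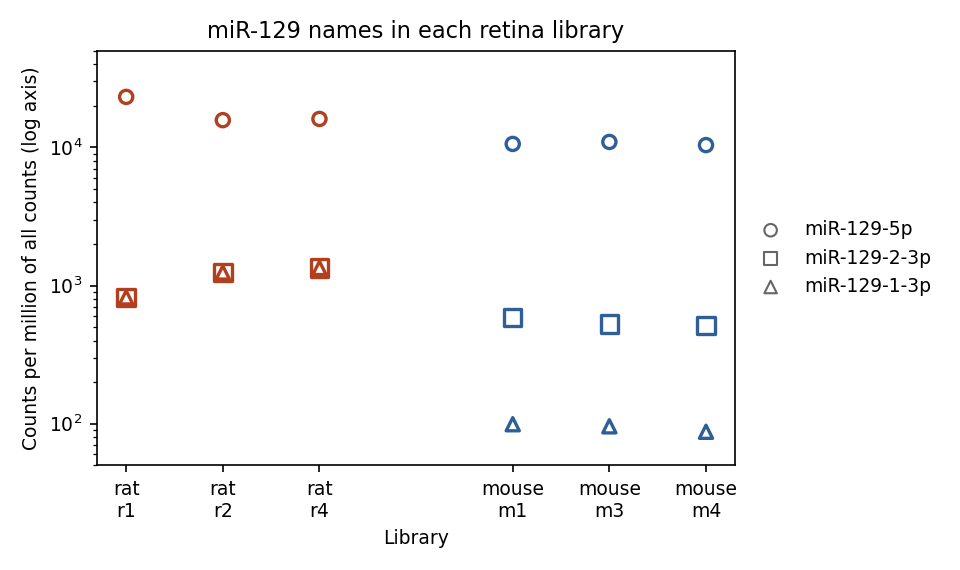
CPM of all counts of the library (log axis) for the 3 miR-129 names found in both tables, in rat libraries r1, r2 and r4 and mouse libraries m1, m3 and m4. Circles are miR-129-5p, squares miR-129-2-3p and triangles miR-129-1-3p. The 3p symbols coincide in each rat library and stand apart in each mouse library.

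Equal rows of this size were rare. Of 367 rat names with at least 50 counts in every library, 4 shared all their counts with another name, in 2 pairs: the miR-129 pair, and miR-466b-2-3p with miR-466b-4-3p at 65, 70 and 75 counts. Of 449 such mouse names, 9 did so in 4 groups, with at most 342 counts (miR-467a-5p and miR-467b-5p). Of the 449 mouse names, 386 had a single RefSeq sequence, and 13 pairs of these differed by 1 base at equal length. None of those 13 pairs (0) had equal counts in mouse, and none of the 13 pairs of the same names (0) had equal counts in rat. For example, let-7a-5p and let-7c-5p had 197887 and 143471 counts in r1, and 313240 and 235843 in m1. Another 2 mouse pairs had identical sequences and nearly equal counts. These were let-7a-1-3p and let-7c-2-3p (3015 each in m1, 3386 and 3387 in m3, 3016 and 3017 in m4) and miR-199a-3p and miR-199b-3p (2408 and 2403 in m1). In rat the names let-7a-1-3p and let-7c-2-3p had 1310 and 1309 counts in r1, and equal counts of 4705 in r2 and 4296 in r4. The sequences behind the rat names were not compared. Whether the rat reads were counted once under each 3p name or divided between the names was not tested.

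The antisense names were at or near 0 in mouse. The name miR-129b-5p had 0 counts in m1, m3 and m4, where a count of 0 allows up to 0.108, 0.0983 and 0.106 CPM (the count over the library's total, on a common scale; 3 counts per library, counting error only). The name miR-129b-3p had 1 count in each mouse library, or 0.0359 CPM in m1, 0.0328 in m3 and 0.0355 in m4.

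Between the species, the 3p count that both names share in rat was higher than that of either mouse 3p name, and the difference of miR-129-5p was not called. The test was edgeR's quasi-likelihood test over the 398 of 542 shared names that passed the filter on low counts, with Benjamini-Hochberg adjustment over all of them and a call at an adjusted p under 0.05. Of all names tested, 25.6% were called higher in rat and 24.4% lower, a total of 50% called. For 29.4% of names all rat libraries lay above all mouse libraries, as they did here for each of the 3 miR-129 names. Scaled CPM below are computed on shared names with TMM factors, which set a common level across libraries from the bulk of names.

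For the dominant strand, miR-129-5p, the scaled level was 45150 CPM in r1, 17566 in r2 and 17989 in r4, against 17067 in m1, 17225 in m3 and 14857 in m4. Rat libraries r2 and r4 lay just above the highest mouse library, and r1 stood apart from all others. The log2 difference, rat minus mouse, was 0.72 ± 0.35 (SE), with a 95% interval of -0.08 to 1.51 and an edgeR adjusted p of 0.124. Without r1 it was 0.12 ± 0.06 (adjusted p = 0.0921). With library totals in place of TMM factors it was 0.91 ± 0.20 and called (adjusted p = 0.00912), a scaling that moves the median of all names tested up by 0.36 and under which 31.9% of them were called higher in rat. An exact permutation test of the mean log2 levels, two-sided over 20 splits, gave p = 0.10, the smallest that 3 against 3 libraries allow. The fit without r1 used TMM factors. On the unscaled share r2 (1.57%) and r4 (1.61%) lay above all mouse libraries (1.04% to 1.09%).

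For the minor strands, miR-129-2-3p had 1600 CPM in r1, 1388 in r2 and 1502 in r4, against 948 in m1, 830 in m3 and 733 in m4. The species did not overlap, and the log2 difference was 0.84 ± 0.16 (SE; edgeR adjusted p = 0.00213). The rat values of miR-129-1-3p are the same numbers, against 160 CPM in m1, 151 in m3 and 125 in m4. Its log2 difference was 3.36 ± 0.17 (edgeR adjusted p = 5.91e-07). Both differences set 1 rat count that the names share against the mouse count of a single name, so they are not separate results.

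Joining the 3p names into 1 row removes the choice of name, and the result then depends on whether the rat counts are taken once or summed. Taken once, the joined level was 1688 CPM in r1, 1327 in r2 and 1546 in r4, against 1080 in m1, 926 in m3 and 903 in m4. All rat libraries lay above all mouse libraries. The log2 difference was 0.65 ± 0.15 (SE; 95% interval 0.30 to 0.996, edgeR adjusted p = 0.00846), among 397 rows of which 25.9% were called higher in rat. The call was lost without m3 (0.60, adjusted p = 0.0604) and held without each other library, r1 included (0.56, adjusted p = 0.000238). Summed, the log2 difference was 1.65 ± 0.15 (95% interval 1.29 to 2.01, adjusted p = 8.62e-05).

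**Figure D2:**
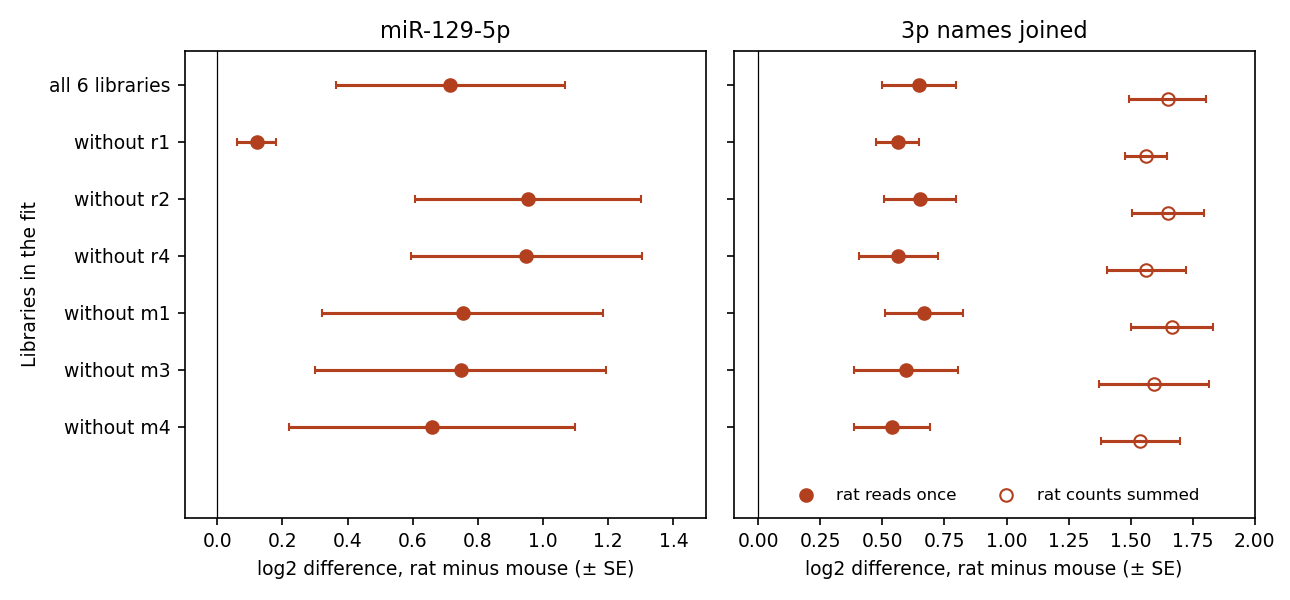
Log2 difference between rat and mouse (x axis, point ± SE) of miR-129-5p (left) and of the joined 3p names (right), with all 6 libraries and with each left out in turn (y axis). Filled points take the equal rat 3p counts once and open points sum them. The miR-129-5p value is 0.12 without r1, while the joined 3p values stay between 0.54 and 0.67 with rat reads taken once. All values use TMM factors.

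**Figure D3:**
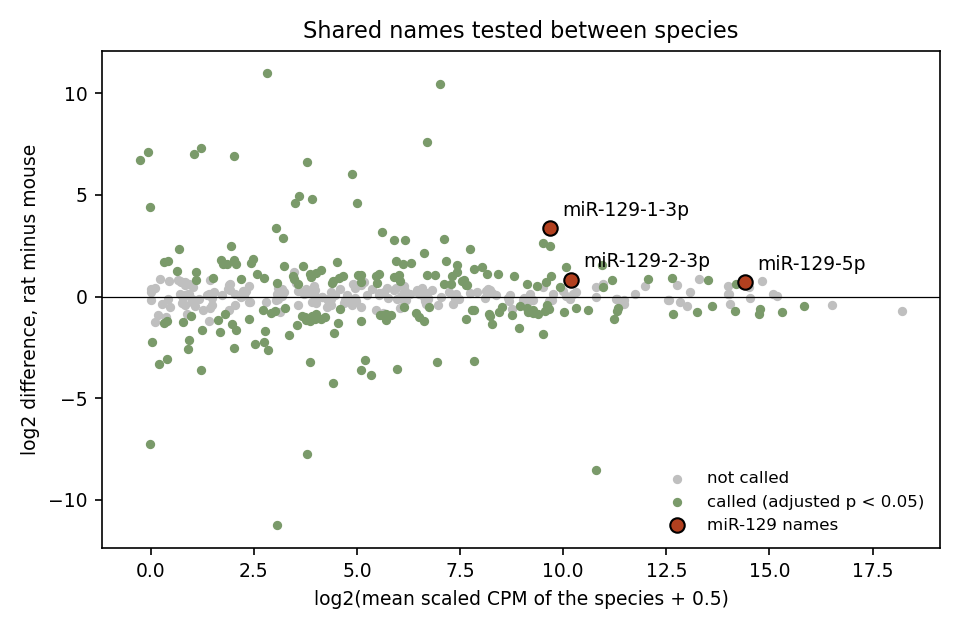
Log2 difference between rat and mouse (y axis) against log2 of the mean scaled CPM of the species plus 0.5 (x axis) for the 398 shared names tested. Green points were called by edgeR at an adjusted p under 0.05, grey points were not, and the red points are the miR-129 names, at 3.36 (miR-129-1-3p), 0.84 (miR-129-2-3p) and 0.72 (miR-129-5p, not called).

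The arms of miR-129 departed from each other in rat library r1, which stood apart over all names. The median absolute departure of a library from the other libraries of its species was 0.47 (log2 scaled CPM) in r1, 0.28 in r2 and 0.23 in r4, against 0.10 in m1, 0.09 in m3 and 0.12 in m4. Against the mean of r2 and r4, r1 was higher by 1.43 for miR-129-5p, and 12 of 397 rows, this one included, were at least as far from r2 and r4. For the joined 3p row r1 was higher by 0.24, and 294 rows were at least as far. On the unscaled level r1 was the lowest rat library for the 3p names: each was at 821 CPM there, while r2 had 1243 and r4 had 1341. The place of r1 among the rat libraries for the 3p names thus turned with the scaling, while for miR-129-5p r1 was highest on both scales. With the 3p names as separate rows, the TMM factors were 0.81 in r1, 1.29 in r2 and 1.32 in r4. In mouse they were 0.87 in m1, 0.86 in m3 and 0.97 in m4. Scaling thus raised r1 and lowered r2 and r4. The gap of miR-129-5p was smaller on the unscaled share, at 2.32% in r1, 1.57% in r2 and 1.61% in r4.

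The ratio of arms within a library needs no scaling. With the rat 3p reads taken once, miR-129-5p had 28.2 counts per 3p count in r1, 12.7 in r2 and 11.97 in r4, against 15.4 in m1, 17.6 in m3 and 17.3 in m4. The mouse ratios lay between r1 and the other rat libraries. Means were 17.6 ± 9.19 in rat and 16.8 ± 1.18 in mouse (SD, n = 3 each). The log2 difference of the ratio was -0.04 ± 0.37 (SE; 95% interval -0.94 to 0.86, limma adjusted p = 0.949 over 170 hairpins). Of those hairpins 24.1% were called, and their median size of difference was 0.59 (log2). The exact permutation p was 1 (two-sided, smallest possible 0.10). Without r1 the difference was -0.44 ± 0.12 (limma adjusted p = 0.0483), with fewer 5p counts per 3p count in rat. In that fit 25.6% of 176 hairpins were called lower in rat.

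Summing the rat 3p counts gave 14.1 5p counts per 3p count in r1, 6.33 in r2 and 5.99 in r4, all under the mouse values of 15.4 in m1, 17.6 in m3 and 17.3 in m4. With rat reads taken once, 28.8% of the hairpins had all rat ratios under all mouse ratios, and miR-129 was not among them. With summed rat counts the log2 difference was -1.04 ± 0.37 (limma adjusted p = 0.101). It was -1.44 ± 0.12 without r1 (limma adjusted p = 0.00152), where 25.6% of 176 hairpins were again called lower in rat. In both countings the 5p strand outnumbered the 3p strand in every library.

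**Figure D4:**
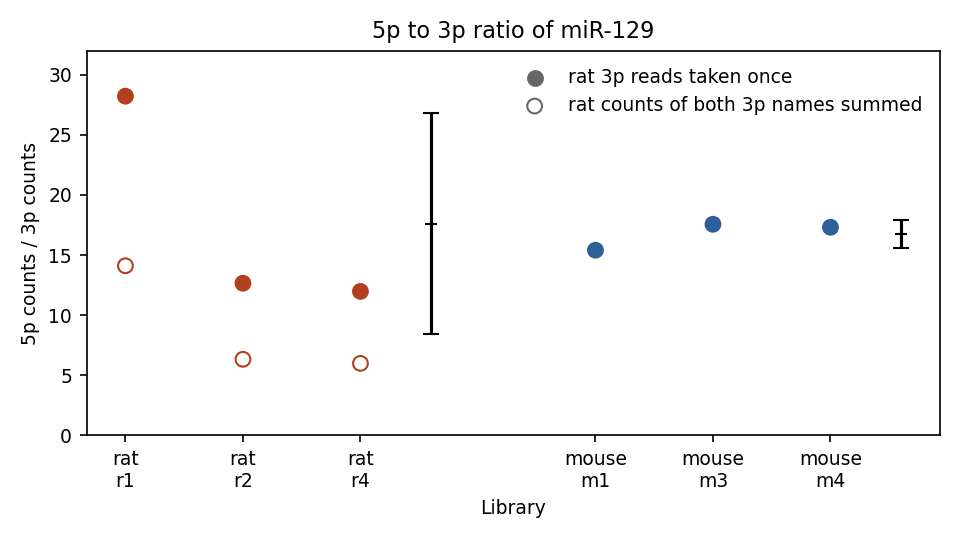
Counts of miR-129-5p per 3p count (y axis) in each library, with rat left and mouse right. Filled points take the equal rat 3p counts once, open points sum both rat names, and black bars are the mean ± SD of the filled points (n = 3 each), 17.6 ± 9.19 in rat and 16.8 ± 1.18 in mouse.

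**Figure D5:**
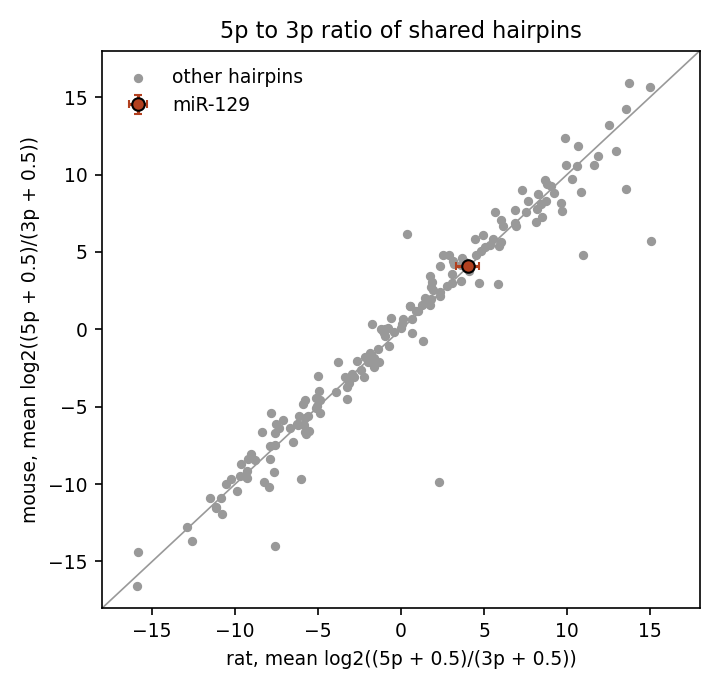
Mean log2((5p + 0.5)/(3p + 0.5)) of 170 hairpins in rat (x axis) and mouse (y axis), with the line of equal ratios. The red point is miR-129 (bars are SD, n = 3 each), with rat 3p reads taken once, at 4.02 in rat and 4.06 in mouse.

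Arms of other hairpins also shifted in r1, in both directions. The miR-129 log2 ratio in r1 was 1.20 above the mean of r2 and r4, and 49 of the 170 hairpins, miR-129 included, were at least as far. Over all hairpins the median log2 ratio of the major to the minor arm was 5.87 in r1, 5.50 in r2 and 5.40 in r4, against 5.58 in m1, 5.57 in m3 and 5.50 in m4. Library r1 was the highest of the 6 on that measure. Against r2 and r4, 96 of the 170 hairpins moved toward the major arm in r1, with a median departure of 0.16 (log2). In m3, set against m1 and m4, 101 of the 170 did so, with a median departure of 0.04.

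The libraries carried the miRNAs that mark a retina. Summed over 3 listed names, the photoreceptor and sensory cell miRNAs miR-182, miR-183-5p and miR-96-5p lay between 360641 and 488361 CPM of all counts in rat and between 434212 and 463511 in mouse. The pair miR-204-5p and miR-211-5p, made in pigment epithelium and Müller glia, summed to 24513 to 30822 CPM in rat and 13778 to 16134 in mouse. Lists for other cells had 0 members at 0 in all libraries of a species. Summed CPM in rat, then in mouse, ran from 162 to 296 and 104 to 111 for red blood cells (4 names measured in each table), and from 43.0 to 79.0 and 52.0 to 59.0 for leukocytes and microglia (5). For vascular and mesenchymal cells the ranges were 7569 to 8001 and 4216 to 5044 (4), and for muscle 44.3 to 66.9 and 642 to 883 (3). Of the muscle names, miR-206-3p went the other way, at a mean of 40.5 scaled CPM in rat and 27.4 in mouse. It was not called (edgeR adjusted p = 0.0863). The muscle name miR-133a-3p was at 2.95 in rat and 6.50 in mouse, so the gap of the sum rests mainly on the remaining name. The list of cornea, lens and epithelium (5 names measured) was at 9461 CPM in r1, against 1893 in r2 and 1281 in r4. In mouse it was at 1380 in m1, 451 in m3 and 1164 in m4. Not every member rose so in r1, the library highest in miR-129-5p. On the scaled level miR-200b-3p was at 53.8 CPM in r1, 33.2 in r2 and 45.9 in r4. There miR-200c-3p was at 14.3, 12.9 and 14.2. The rise of the sum in r1 rests on the other listed names. The neuronal marker list, miR-124-3p and miR-9 (2 names measured), was at 51154 CPM in r1, against 89812 in r2 and 90515 in r4, with 70410 to 73483 in mouse. Their part in the level of miR-129-5p was not tested. In whole retinas, fewer cells of a type and less of the miRNA per cell cannot be told apart.

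Of 16 other neuron-enriched miRNA names, each a mature arm, 12 could be tested. Of these, 0 were higher in rat, 6 lower and 6 not called, with a median log2 difference of -0.51. Both arms of miR-124, miR-132 and miR-212 are among the 12, so the names are not all separate miRNAs. The 6 lower hold miR-212-5p and both arms of miR-132, with miR-132-3p at an edgeR adjusted p of 0.0494. The rest of the list, miR-7b-5p, miR-9-5p, miR-9-3p and miR-218-5p, was not among the names tested. These counts therefore leave out miR-9. The unscaled sum of miR-124-3p and miR-9 given above was higher in r2 (89812 CPM) and r4 (90515) than in mouse (70410 to 73483), and lower in r1 (51154). Over all 398 names 25.6% were higher and 24.4% lower, with a median of 0.08. With library totals alone 0 of the 12 were higher and 3 lower, with a median of -0.18, where 31.9% of all names were higher and 10.8% lower, with a median of 0.43. Without r1, 2 of the 12 were higher and 7 lower, where 36.6% of 413 names were higher and 34.4% lower. The most abundant neuronal miRNA lowered in rat was miR-124-3p, which promotes neuronal identity, at 13870 CPM ± 1425 in rat and 22616 CPM ± 1503 in mouse (SD, n = 3 each). Its log2 difference was -0.71 ± 0.17 (SE; edgeR adjusted p = 0.00711), and -0.33 and not called with library totals alone (adjusted p = 0.317). The excitability-dampening miR-128-3p (-1.09 ± 0.18) and miR-149-5p (-0.86 ± 0.16) also fell, with edgeR adjusted p of 0.00111 and 0.00233. In r1, miR-7a-5p was at 35515 CPM, against 17003 in r2 and 16945 in r4, with 22176 to 25515 CPM in mouse, and its difference of -0.05 ± 0.29 was not called (adjusted p = 0.897). Without r1, miR-7a-5p fell by 0.50 (log2) in rat (edgeR adjusted p = 4.82e-05).

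The names most like miR-129-5p over the 6 libraries were found by the root mean square distance of log2 scaled CPM, each profile centred on its own mean. Out of 395 names these were miR-378a-3p (distance 0.09), miR-127-3p (0.11), miR-99b-5p (0.13), miR-30e-3p (0.14) and miR-99b-3p (0.16), where the median distance was 0.72. All of these 5 were highest in r1: miR-378a-3p had 23033 CPM in r1, 7678 in r2 and 9167 in r4, against 7064 in m1, 6854 in m3 and 6792 in m4. For the joined 3p row the nearest names were miR-135b-5p (0.08), miR-879-5p (0.11), miR-221-5p (0.12), miR-98-3p (0.13) and miR-382-3p (0.13), with a median distance of 0.54. There miR-135b-5p had 201 CPM in r1, 182 in r2 and 184 in r4, against 128 in m1, 120 in m3 and 112 in m4. The distance between miR-129-5p and its own joined 3p row was 0.40, so neither arm was among the 5 names nearest to the other. These are descriptions of 6 libraries of 2 species and carry no p.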

How the data were processed

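Per the labels' protocols, RNA of dissected retinas was made into Illumina small RNA libraries and sequenced single-end to 50 bases. That text names rat eyes for both species. Values are unnormalized read counts of mature miRNA names, which the authors deposited as a table for each species. How reads were trimmed, aligned and annotated, and how reads matching several names were counted, is not given in the sources used here. Depth was 24169628 to 28198305 counts per rat library and 27843590 to 30514632 per mouse library. Columns were assigned to a species by their table, since their numbers differ from those of the labels.

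The 542 names shared after the species prefix was removed entered edgeR 4.0.16 (R 4.3.3) with filterByExpr, TMM factors and the quasi-likelihood test, species being the only term. Table, annotation, batch and strain cannot be told apart from species. For the joined row the 3p counts were summed in mouse and taken once in rat, where they are equal. Arm ratios were tested with limma 3.58.1 on log2((5p + 0.5)/(3p + 0.5)) over hairpins with at least 50 counts of both arms together in every library (170 of 233). DESeq2 1.42.0 was an alternative. Tests were checked on simulated data with the same spread in all libraries, which for the ratio test was the median SD of the mouse libraries. That check does not cover a library that stands apart, as r1 did. Named miRNAs were all miR-129 rows, the 5 nearest profiles, rank neighbours, up to 5 neuron-enriched miRNAs with values and up to 4 equal pairs by abundance. Members of the epithelium and muscle lists, and arms of a same hairpin in the neuron-enriched list, were named after their values were seen. The 1-base and identical pairs were chosen after their values were seen. The members and lists were chosen with earlier results of these data known.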

Additional observations from a re-analysis of the deposited data

How the results depend on the processing

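No paired analysis was possible because the count columns do not carry the replicate numbers of the labels. Those numbers count the samples within a species, and the labels name nothing that would pair a rat library with a mouse library. The calls of miR-129-1-3p and miR-129-2-3p held under library totals, RLE factors, DESeq2, limma-voom, other filters, totals of all names and each library left out (3.29 to 3.45 and 0.77 to 0.95 in log2 for the last). Against a fold of at least 2, miR-129-2-3p (0.84) was not called. The miR-129-5p difference was called with library totals alone (0.91) and ranged from 0.12 to 0.95 when 1 library was left out, never called. The joined 3p difference ranged from 0.54 to 0.67, with the call lost without m3, and was 0.61 with the TMM factors of separate rows and 1.94 summed with library totals. The last 2 settings, and each library left out with summed counts (1.54 to 1.67), were chosen after seeing the data. The log2 difference of the 5p to 3p ratio was -2.80 and called with miR-129-1-3p as denominator. That setting sets the rat count shared by both 3p names against a mouse name with 14.4% to 15.4% of the mouse 3p counts. It is therefore not a separate result on the arms. With the joined 3p row, the difference of the ratio ranged from -0.44 to 0.18 with 1 library left out. Its sign reversed without r2 (0.14) and without r4 (0.18). With summed counts and without r1 it was -1.44 and called. Names called higher and lower were 102 and 97, with 43 lower under library totals, 62 higher with at least 50 counts, 40 higher and 30 lower against a fold of 2, and 78 to 151 higher and 73 to 142 lower with 1 library left out. Hairpin ratios called were 14 higher and 27 lower, and 9 to 23 and 15 to 45 with 1 library left out. The cause of these changes was not tested.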
